A study of Mus musculus with 3 samples.

Results

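This account describes 189 mouse genes that are annotated as antisense long noncoding RNAs and had a measured level in macrophages. They were chosen by their measured level. A gene qualified if every transcript of it carried the biotype antisense in the GENCODE M21 annotation of mm10, and if its level was 5 TPM or more in all 3 libraries. TPM is a read level per transcript length, scaled to a fixed sum in each library. Of 55536 annotated genes, 2948 were antisense only, 3 of these (Tsix, Snhg7os and Snhg9) were left out by symbol, and 189 of the remaining 2945 (6.42%) reached the level.

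The libraries hold chromatin-bound RNA from macrophages grown from the bone marrow of the C57BL/6J mouse strain. Ribosomal RNA had been removed. All 3 libraries belong to 1 condition: the cells were given Lipid A, the TLR4-binding part of bacterial lipopolysaccharide, at 100 ng/ml for 12 h, were kept without it for 12 h, and were stimulated again at 100 ng/ml for 10 min. No other condition was analysed here, so nothing below is a response to Lipid A. The labels number the libraries as biological replicates but give them a shared donor identifier, so the spread between them may be partly technical. Replicate 1 was made from 1 ug of RNA, replicate 2 from 250 ng and replicate 3 from 500 ng. Expected counts on genes summed to 13538605, 19949204 and 18224466 in replicates 1, 2 and 3. All 10 macrophage markers were at 1 TPM or more in every library, with summed levels of 1447 to 1745 TPM, while none of 24 markers of 8 other cell types was, with summed levels of 0.890 to 2.52 TPM.

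An antisense RNA is transcribed from the strand opposite to another gene, often a protein-coding one, called its partner here. Such RNAs can share sequence with the partner's exons, lie within its introns or start from the same promoter region and run the other way. Well-studied examples act in cis on chromatin: Airn and Kcnq1ot1, made from the paternal chromosome, silence neighbouring imprinted genes. Many stay in the nucleus, where the chromatin fraction captures them together with unspliced transcripts of the genes they overlap. Whether reads were assigned by strand is not given in the sources used here, so reads from an antisense gene and reads from the partner over the same bases cannot be told apart. This holds for every level given below, and most directly for genes lying inside a partner.

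A few sequences from these loci are printed here. The first is the microRNA pair encoded in an exon of F630028O10Rik, the antisense gene of highest level without a partner, since it gives that gene a known product. The mature sequences are credited to RefSeq on GRCm38.p6, and capitals mark the seed, bases 2 to 8, which pairs with target RNAs.
mmu-miR-223-3p: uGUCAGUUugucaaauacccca
mmu-miR-223-5p: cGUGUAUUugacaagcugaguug
The seeds of the arms differ. A further microRNA gene, Mir7211, lies in an intron of Tmcc3os on the same strand (12.5 TPM on average), and its listed mature form has another seed.
mmu-miR-7211-5p: uCUUUCCCucugccacuccacc

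The second set is exon sequence that an antisense gene shares, on the opposite strand, with coding sequence of its partner. It is shown because reads from such bases match both genes unless they are assigned by strand. The stretch of AC119228.1 at chr19:29373417-29373672 on the minus strand (mm10, GENCODE M21 transcript sequence) has in capitals the 115 bases that are coding sequence of Cd274 on the plus strand.
AC119228.1: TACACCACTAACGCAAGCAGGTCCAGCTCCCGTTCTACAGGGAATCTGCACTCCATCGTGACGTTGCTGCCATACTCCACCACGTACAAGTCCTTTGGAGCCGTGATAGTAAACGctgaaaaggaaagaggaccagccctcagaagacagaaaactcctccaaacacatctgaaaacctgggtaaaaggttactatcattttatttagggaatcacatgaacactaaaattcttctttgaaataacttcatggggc
In all, exons of AC119228.1 covered 511 coding bases of Cd274 in 3 stretches. The stretch of Gm28913 at chr1:131263330-131263394 on the plus strand holds far fewer such bases, the 20 in capitals, which are coding sequence of Ikbke on the minus strand.
Gm28913: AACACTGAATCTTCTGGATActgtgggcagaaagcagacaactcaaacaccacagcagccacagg

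The third is the promoter window of F630028O10Rik, chrX:96239676-96239975 on the plus strand of GRCm38.p6, from RefSeq. It runs from 250 bases before the gene's start to 50 bases after it.
F630028O10Rik promoter: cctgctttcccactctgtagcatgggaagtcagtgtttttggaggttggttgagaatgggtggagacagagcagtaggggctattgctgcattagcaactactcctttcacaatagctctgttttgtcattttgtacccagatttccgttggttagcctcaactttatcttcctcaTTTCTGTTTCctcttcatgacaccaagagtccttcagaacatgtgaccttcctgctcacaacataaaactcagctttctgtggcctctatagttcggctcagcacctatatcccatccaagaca
Capitals mark a match to GAAANNGAAA, the core of an interferon-stimulated response element, read on the other strand and beginning 74 bases before the start. Both strands of every window were searched for these letters, and 3.44% of 32851 windows held them. Windows were found for 65 of the 189 genes, and 2 of these held a match. In 31 the start lay within 50 bases of the annotated one, and of those 31 only that of F630028O10Rik held a match. Both counts are near the share over all windows. A match is a run of letters, not a measured site. The window held 2 CpG, against a median of 4 over those 31 windows and 7 over all windows.

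The 189 genes averaged between 5.27 and 150 TPM, with a median of 9.90 TPM. Their summed level was 0.337%, 0.299% and 0.273% of all TPM in replicates 1, 2 and 3, and 60.8% ± 2.44 (SD, n = 3) of the TPM of all antisense-only genes. Levels were uneven: 93 genes averaged 10 TPM or more, 9 averaged 50 TPM or more, and the 12 highest together held 27.7% ± 2.16 (SD, n = 3) of the summed level. Outside the rule, 1415 antisense-only genes were below 0.1 TPM in every library. Just inside the threshold lay Gm28370 with a lowest library of 5 TPM, 4930455G09Rik with 5.04 TPM and Gm44649 with 5.05 TPM. Just outside lay Gm37637 with 4.99 TPM, 4930551O13Rik with 4.95 TPM and Gm48708 with 4.91 TPM.

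AC119228.1 (ENSMUSG00000117964.1, minus strand) had the highest mean of the set, at 196, 153 and 101 TPM in replicates 1, 2 and 3. It runs opposite to Cd274, which encodes PD-L1, the ligand of the T cell checkpoint receptor PD-1. Cd274 itself was at 243, 186 and 157 TPM. Both genes were highest in replicate 1 and lowest in replicate 3, and the antisense gene was at 75.9% ± 9.72 of its partner (SD, n = 3). Its rank did not hold in the tables quantified straight from the reads, taken up at the end. There AC119228.1 averaged 144 TPM, below genes such as Gm28913 at 334 TPM and Gm16094 at 182 TPM. The coding bases printed above are 115 of the 511 that AC119228.1 shares with Cd274. All exonic bases of AC119228.1 lie within the body of Cd274. Without known strand treatment, reads from the rest of them cannot be told apart from unspliced Cd274 RNA either.

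Gm28913 (ENSMUSG00000102055.1) and Gm28914 (ENSMUSG00000102027.1) both run opposite to Ikbke, which encodes IKK-epsilon, a kinase that activates IRF3 downstream of TLR4 and nucleic acid sensors. Gm28913 was at 99.1, 128 and 102 TPM in replicates 1, 2 and 3. These levels rested on 219, 269 and 220 expected counts over a transcript of only 364 bases. AC119228.1 had 9248, 8977 and 5961 expected counts. Gm28914 was at 28.2, 35.2 and 21.3 TPM. Ikbke was at 1091, 1088 and 838 TPM, above both antisense genes in every library. Gm28913 stood at 11.0% ± 1.66 of Ikbke and Gm28914 at 2.79% ± 0.386 (SD, n = 3 each).

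Gm16094 (ENSMUSG00000090103.1) starts 469 bases from Sp110, runs away from it and, in the M21 annotation, does not overlap it. Sp110 encodes an interferon-inducible protein of the nuclear body family. Gm16094 was at 126, 59.7 and 45.3 TPM in replicates 1, 2 and 3, and Sp110 at 415, 346 and 273 TPM. Replicate 1 was the highest for both. A further RefSeq start of Sp110 lies beyond Gm16094, with its promoter window at chr1:85603842-85604141 on the minus strand. A longer Sp110 transcript would thus run across Gm16094, and without known strand treatment their reads cannot be told apart there.

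Gm7480 had 159, 90.9 and 88.7 TPM in replicates 1, 2 and 3, and 4930405A10Rik had 53.4, 39.3 and 45.9 TPM. Both lie opposite to Lrmda, a leucine-rich repeat gene named for melanocyte differentiation, which was at 100, 111 and 113 TPM. Both antisense genes were highest in replicate 1, where Lrmda was lowest. 4933423P22Rik had 80.3, 59.8 and 58.5 TPM within Ptprj, a receptor tyrosine phosphatase that averaged 62.1 ± 9.48 TPM. Gm46411 had 61.9, 49.4 and 49.5 TPM within Rreb1, a zinc finger transcription factor. Both genes lay near the level of their partner, at 107% ± 11.9 for 4933423P22Rik and 69.0% ± 10.8 for Gm46411 (SD, n = 3 each).

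Gm45606 had 37.4, 43.9 and 38.9 TPM opposite to Slc43a2, an amino acid transporter. Gm45479 had 43.3, 37.7 and 35.0 TPM opposite to Irf2, an interferon regulatory factor that competes with Irf1 for its sites. They reached 26.3% ± 1.60 and 23.1% ± 1.61 of their partners (SD, n = 3 each).

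Gm26740 departed from this pattern. It had 53.3, 53.8 and 46.4 TPM, while Raet1e, a ligand of the activating receptor NKG2D, had 0.35, 0.46 and 0.65 TPM. Raet1e has close relatives beside it, so its own level is uncertain where reads could be split among copies. The antisense level was above that of the partner in all 3 libraries.

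**Figure D1:**
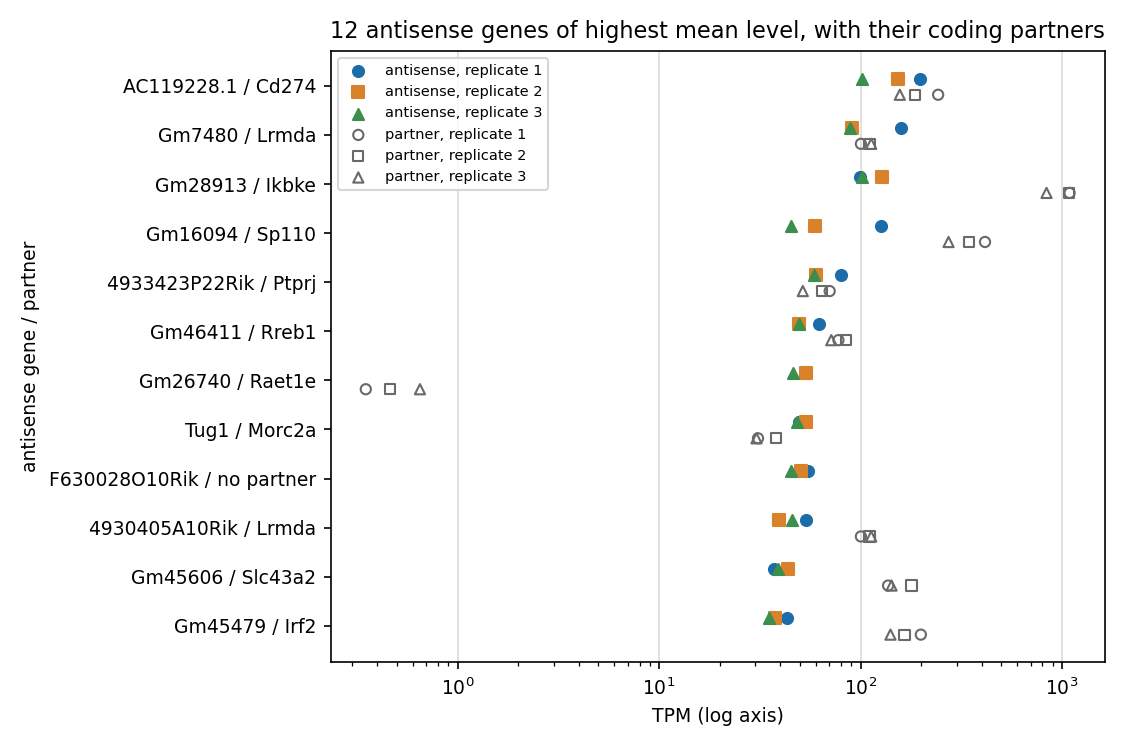
Level in TPM (log axis) of the 12 antisense genes of highest mean, filled symbols for each replicate, above open symbols for the coding partner of each. AC119228.1 reaches 196 TPM, Gm28913 lies below Ikbke at 838 to 1091 TPM, and Gm26740 lies far above Raet1e.

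Tug1 (ENSMUSG00000056579.18, chr11:3639785-3649673), a conserved long noncoding RNA with nuclear and cytoplasmic roles, was even across libraries at 49.6, 53.5 and 48.4 TPM. In the M21 annotation Tug1 starts 482 bases from Morc2a, and their first exons overlap. Morc2a encodes an ATPase that works with the HUSH silencing complex. Morc2a was at 31.0, 37.9 and 30.5 TPM, so Tug1 stood at 153% ± 10.7 of its partner (SD, n = 3). The nearest RefSeq promoter windows of the pair are rich in CpG, with 37 for Tug1 and 46 for Morc2a. These windows do not overlap, at chr11:3648765-3649064 for Tug1 and chr11:3649187-3649486 for Morc2a. From those RefSeq starts the pair runs apart without overlap.

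F630028O10Rik (ENSMUSG00000078122.4, chrX:96239926-96243636) had 54.9, 50.6 and 45.3 TPM, an even level over the libraries. It was the only one of the 189 on chromosome X. Its exon contains Mir223, the gene of the miR-223 arms printed above, a microRNA that is abundant in myeloid cells and restrains inflammatory signalling. The Mir223 hairpin itself was listed at 0 in all libraries. Mir7211 was also listed at 0, yet had 43.3, 30.7 and 21.2 TPM in the tables quantified straight from the reads. Listed levels of such short genes are therefore not read as levels of the microRNAs. No coding gene lies opposite to F630028O10Rik, so its level does not share bases with a partner.

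Among 25 antisense RNAs with described functions or names, 14 were found as antisense-only genes, 3 passed 5 TPM and 7 were below 0.1 TPM in every library. Airn (ENSMUSG00000078247.4, chr17:12741311-12860136), which silences Igf2r and its neighbours on the paternal chromosome, had 25.5, 27.2 and 24.5 TPM. Igf2r, the receptor that carries IGF2 and mannose 6-phosphate proteins to lysosomes, had 14.7, 15.1 and 18.4 TPM, less than Airn in every library. Kcnq1ot1 (ENSMUSG00000101609.2, chr7:143203458-143296549) had 11.9, 14.7 and 12.7 TPM. As an unspliced transcript of 93092 bases it took 14656, 23113 and 19436 expected counts, 22.0% ± 3.17 (SD, n = 3) of all expected counts on the 189 genes. Its partner Kcnq1, a potassium channel gene, was listed at 0, 0.05 and 0.07 TPM, so no ratio is given. Brip1os had 10.7, 10.1 and 8.65 TPM opposite to Ints2, a subunit of the Integrator complex that processes nascent RNA, with 17.0, 21.4 and 18.4 TPM. The tables quantified straight from the reads, taken up at the end, differed for some of the 7. Wt1os, listed at 0 in every gene table, had 12.9, 13.8 and 19.1 TPM there, and Vax2os, also listed at 0, had 1.94, 4.38 and 4.69 TPM. Below the threshold, and named with Wt1os and Vax2os after their values were seen, Rab26os had 3.24, 8.67 and 9.19 TPM, low in replicate 1, and Hotairm1, a HoxA cluster RNA of myeloid cells, had 0.440, 2.36 and 1.54 TPM, also lowest in replicate 1.

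At the low end of the set, AC126438.2, A930006L05Rik, Gm30934, Gm28370 and Ttc39aos1 averaged 5.27 to 5.60 TPM. AC126438.2 rested on 19, 18 and 18 expected counts, whereas A930006L05Rik, with a longer transcript, had 190, 235 and 234. Over the 189 genes the median was 178, 203 and 175 expected counts in replicates 1, 2 and 3.

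By position, 99 of the 189 (52.4%) overlapped exons of the partner, 78 (41.3%) overlapped its body without sharing exonic bases, 2 (1.06%) started back to back without overlap, and 10 (5.29%) had no coding gene on the other strand overlapping or starting within 2000 bases. Among all 2945 antisense-only genes the shares were 54.6%, 37.7%, 2.85% and 4.82%. All exonic bases lay within coding gene bodies of the other strand for 127 of the 189 (67.2%), and for 55.6% of the other antisense-only genes. A coding start on the other strand within 2000 bases was annotated for 32 of the 189 (16.9%), against 27.9% of the others. The leading transcript had a median of 1330 bases in the set and 771.5 bases among the others. Median GC content was 47.6% in the set and 48.8% among the others. A single annotated transcript was the case for 121 genes (64.0%), and for 76.9% of the others. Where 2 or more were annotated, the leading one held a median of 71.9% ± 0.889 of the gene's TPM (SD over libraries, n = 3).

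Exons of 12 genes lay outside every coding body that M21 places on the other strand, so they share no bases with an unspliced transcript annotated there. These 12 were counted after the data had been seen. Gm16094 at 77.0 ± 43.0 TPM and F630028O10Rik at 50.3 ± 4.78 TPM (SD, n = 3 each) were the highest of them. Of the 12, 5 lay inside a coding gene on their own strand. Examples are Gm15859 at 29.2 ± 2.71 TPM in Hmox2, a heme oxygenase, and D730005E14Rik in Apobec3, a cytidine deaminase that restricts retroviruses. The other 7 lay in no coding gene that M21 places on either strand. Gm16094 is among these 7, although the longer RefSeq transcript of Sp110 described above would run across it.

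Partners of these genes were themselves expressed. Of 165 distinct partners, 152 (92.1%) were at 5 TPM or more in all 3 libraries, and 40 averaged 100 TPM or more. The median partner was at 41.3, 41.9 and 39.1 TPM in replicates 1, 2 and 3. Partners of the other antisense-only genes had medians of 0.90, 1.09 and 0.89 TPM. Read the other way round, the share of antisense-only genes past 5 TPM was 0.412% where the partner averaged under 0.1 TPM (4 of 971), 2.65% at 1 to below 10 TPM (16 of 604), 11.7% at 10 to below 50 TPM (70 of 596) and 51.1% at 100 TPM or more (46 of 90). Over all 2803 antisense-only genes with a partner, the levels of the pair had a Spearman correlation of 0.72 and, on log2(TPM + 0.1), a Pearson r of 0.71. Within the set the Spearman correlation was 0.29 over 179 pairs, where the threshold removes low antisense genes. Both are across genes that share libraries and, without known strand treatment, possibly reads. The Spearman correlation was 0.73 over the 1608 pairs that shared exonic bases and 0.70 over the 1111 that overlapped without sharing them. Pairs of the latter kind can still share bases through unspliced RNA of the partner.

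**Figure D2:**
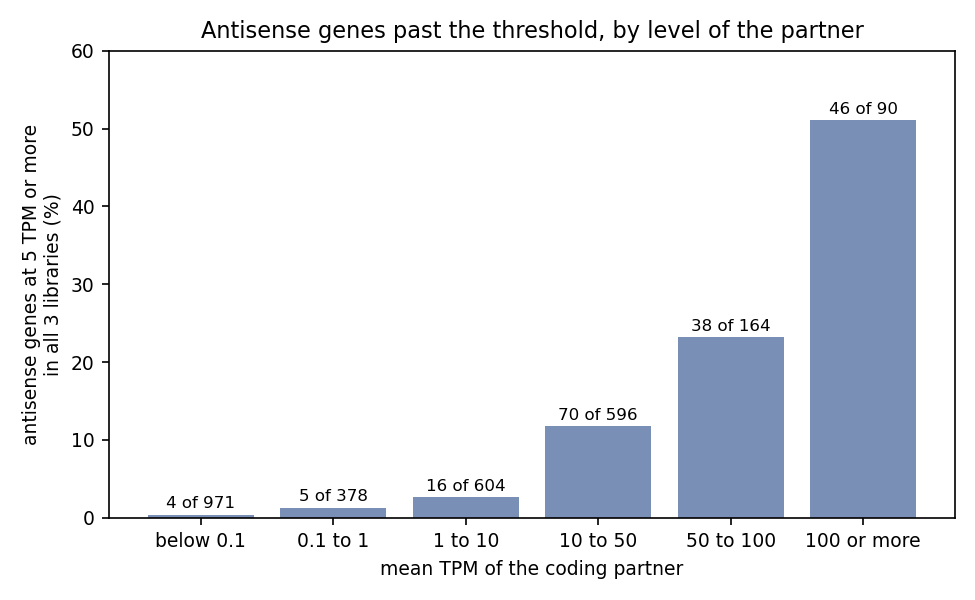
Share in percent of antisense-only genes with 5 TPM or more in all 3 libraries, by mean TPM of the coding partner, with the counts above each bar. Each bin includes its lower limit, and the share is 0.412% in the lowest bin and 51.1% in the highest.

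Antisense genes mostly lay below their partners. On the scale of log2(TPM + 0.1), the median difference, antisense minus partner, was -1.88, -1.94 and -1.82 in replicates 1, 2 and 3. Of 179 genes with a partner, 149 were below it in all 3 libraries, 20 were above it in all 3, and 10 were above in some libraries and below in others. The median difference was -1.88 ± 0.06 for the 99 that shared exonic bases and -1.89 ± 0.07 for the 78 that overlapped without sharing them (SD, n = 3 each). The 78 can still share bases with unspliced RNA of the partner, so this split does not separate shared from unshared reads. The lowest relative to the partner was Gm15701, with 14.8, 6.83 and 7.02 TPM opposite to Rasa4, a Ras GTPase-activating gene with 390, 447 and 390 TPM. Gm2245 came next, with 36.4, 28.1 and 21.7 TPM opposite to Fyb, a macrophage and T cell adaptor with 1135, 1132 and 839 TPM, and Gm28914 at Ikbke was the third.

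At the other end, 9 genes had a partner that averaged under 1 TPM. Gm26642 had 16.3, 17.7 and 12.2 TPM opposite to Elf3, an epithelial transcription factor gene listed at 0, 0 and 0.07 TPM. 9530082P21Rik had 12.3, 11.8 and 9.10 TPM opposite to Kremen2, a Wnt pathway receptor gene, and Etohd2 had 13.7, 10.6 and 8.87 TPM opposite to Gm49354. Kremen2 and Gm49354 were listed at 0 in every library, so no fold is given. The partner was the coding gene of longest overlap, so any other coding gene overlapping these antisense genes was not compared.

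**Figure D3:**
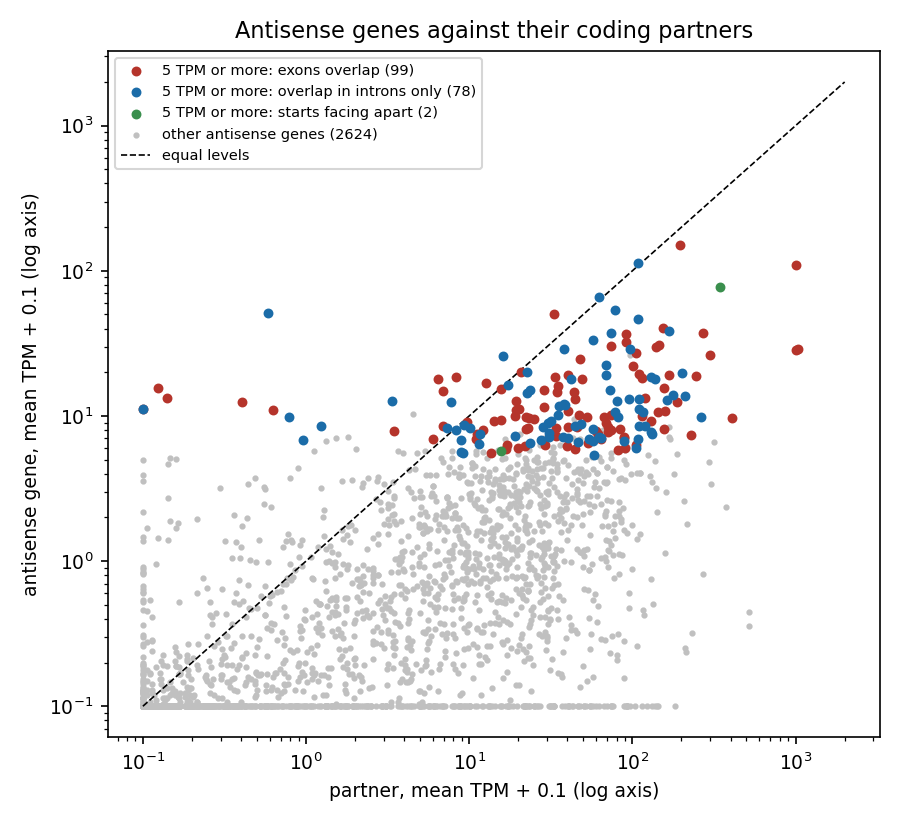
Mean TPM + 0.1 of 2803 antisense-only genes against that of their coding partners, on log axes; colours mark the 179 of the set by position, grey the other 2624, and the dashed line equal levels. Most coloured points lie right of the line, and a few lie at partner levels near 0.

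Several partners carried more than 1 gene of the set, which are then not independent of each other: 25 genes shared 11 partners. Arhgap10, at 109 ± 7.26 TPM, had 4, of which 0610038B21Rik was the highest. Lrmda had 3, and the other 9 partners had 2 each, among them Ikbke and Cdk6, a cell cycle kinase. These groups were counted after the data had been seen.

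For lists of immune genes, the question was how many had an antisense gene in the set. As background, 6.42% of all antisense-only genes passed, and 51.1% (46 of 90) of those whose partner averaged 100 TPM or more. Sp110, Slfn2, Ikbke, Fyb and Mertk, whose antisense genes passed, all averaged 100 TPM or more. The counts below are small and were not tested against these shares. All 50 interferon-stimulated genes found were at 5 TPM or more, 8 of them had an antisense-only partner, and 2 antisense genes passed. These were Gm16094 at Sp110, described above, and Gm20234 at Slfn2, a regulator of immune cell quiescence. Gm20234 had 26.0, 14.4 and 13.0 TPM, highest in replicate 1, and Slfn2 averaged 137 TPM. Among TLR4 and NF-kB genes, 39 of 42 were at 5 TPM or more, 8 had an antisense-only partner, and the 2 that passed were both at Ikbke. Junos, opposite to the early response gene Jun, had 4.36, 2.15 and 2.23 TPM and stayed below the threshold in the gene tables.

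Among macrophage genes, 33 of 35 were at 5 TPM or more, 6 had an antisense-only partner, and 2 antisense genes passed: Gm2245 at Fyb, given above, and Gm14011 at Mertk, the receptor for uptake of apoptotic cells. Gm14011 had 7.61, 6.98 and 10.5 TPM from only 11, 9 and 14 expected counts. Gm15655, opposite to the transcription factor gene Maf, was listed at 0 TPM in replicate 1 and had 45.1 and 34.1 TPM in the other replicates, so it failed the rule on 1 library. In the gene tables no antisense gene passed for cytokines and chemokines, of which 13 of 31 were at 5 TPM or more. None passed for immediate early genes either, of which 13 of 31 were at that level. Only 2 of the cytokine and chemokine genes and 3 of the immediate early genes had an antisense-only partner, too few to read anything from the absence when 6.42% of all antisense-only genes passed. Il1bos, opposite to Il1b and like Junos and Gm15655 named after its values were seen, had 0.310, 0.0700 and 0.210 TPM. Quantified straight from the reads, Il1bos had 5.34, 6.19 and 6.42 TPM in replicates 1, 2 and 3, and Junos 17.1, 10.2 and 10.3 TPM. Both would pass there, so these absences hold for the gene tables only. Counts for the other lists depend on the same choice of tables.

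The spread between libraries was the only property tested, with edgeR's goodness-of-fit of a 1-group model over all genes. The minimum of 5 TPM in every library limits how low a gene of the set can fall. Of 14789 genes tested, 166 (1.12%) varied beyond the trend at an adjusted p below 0.05. In the set 4 of 188 tested did (2.13%); Gm14011 had too few counts to be tested. At an unadjusted p below 0.05 there were 19 (10.1%), against 6.08% of all genes tested. The median SD of log2 CPM (counts scaled to library size) was 0.21 in the set and 0.19 over all genes tested.

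Peak1os, opposite to the pseudokinase gene Peak1, had 33.7 TPM in replicate 1, 12.0 in replicate 2 and 9.25 in replicate 3 (edgeR adjusted p = 1.48e-06). Peak1 itself was level, at 33.7, 33.4 and 33.4 TPM. Gm16094, with the values given above, had an edgeR adjusted p of 8.67e-05. 1700099I09Rik, opposite to Mast4, a serine/threonine kinase, had 46.3, 27.4 and 17.6 TPM (edgeR adjusted p = 0.0142). Mast4 had 91.9, 69.6 and 59.6 TPM, and it too was highest there. A530040E14Rik had 27.0, 15.9 and 10.4 TPM (edgeR adjusted p = 0.0142) and lies opposite to C130026I21Rik, which had 72.7, 49.4 and 24.5 TPM. All 4 were highest in replicate 1.

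C130026I21Rik was the only partner called among 158 tested (edgeR adjusted p = 0.00182), with 6 partners at an unadjusted p below 0.05. Whether an antisense gene varied more than its partner was not tested. Over the set, 88 genes (46.6%) were highest in replicate 1, 66 (34.9%) in replicate 2 and 35 (18.5%) in replicate 3. For all 8476 genes at 5 TPM or more in every library the shares were 33.5%, 50.2% and 16.3%. Replicate 1 had the most input RNA and the lowest gene count, so input, depth and the libraries' own differences cannot be told apart. The calls rested on that library: without replicate 1, none of the 4 was called and D730005E14Rik was (edgeR adjusted p = 0.0108, from 11.7 and 5.20 TPM in replicates 2 and 3). Without replicate 2, and likewise without replicate 3, Peak1os and Gm16094 were called and the other 2 were not.

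**Figure D4:**
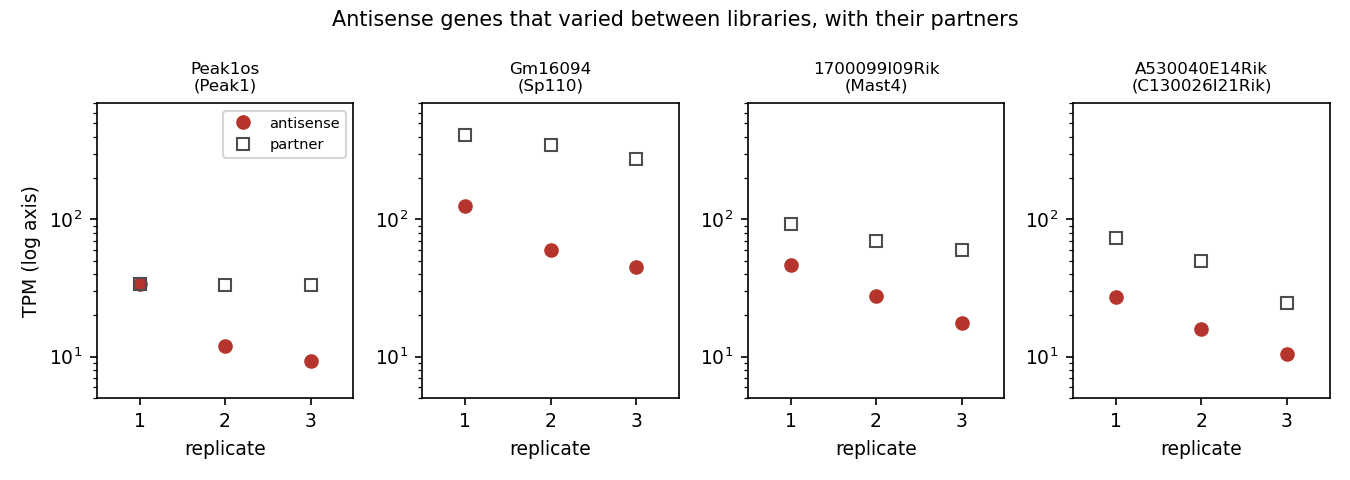
TPM (log axis) in each replicate of the 4 antisense genes that varied between libraries, filled circles, and of their coding partners, open squares. All 4 are highest in replicate 1, while Peak1 stays between 33.4 and 33.7 TPM.

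A second set of tables, quantified by the authors straight from the reads, gave the same genes somewhat higher levels. The median of log2(read-based TPM + 0.1) minus log2(gene-table TPM + 0.1) was 0.42, 0.34 and 0.39 in replicates 1, 2 and 3, and 0.45, 0.19 and 0.27 over all 8476 genes at 5 TPM or more. Of the 189 genes, 180 (95.2%) were also at 5 TPM or more in every read-based table. Read-based levels put 578 antisense-only genes past that level, and the 180 were 31.1% of them.

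The tables differed most for exons contained in a partner's exon. All 571 exonic bases of Gm17139, opposite to Arel1, and all 415 of Gm26716, opposite to Sdc3, a heparan sulphate proteoglycan, are also exonic in the partner, with 0 bases of coding sequence among them. Gm17139 had 13.1, 10.9 and 10.4 TPM in the gene tables and 0.862, 0 and 0 TPM in the read-based ones. Gm26716 had 28.5, 33.1 and 35.3 TPM in the gene tables and 0, 0 and 1.55 TPM in the read-based ones. No other gene of the set had more than 74.5% of its exonic bases shared. The next lowest ratio of read-based to gene-table level was that of Gm13966, opposite to Fmn1, with 54.0% shared. Gm13966 averaged 7.67 TPM in the gene tables and 5.11 TPM in the read-based ones. The 7 with 50% to below 100% shared had a median difference of 0.17 ± 0.10, the 90 with less than that 0.21 ± 0.10, and the 80 with none 0.51 ± 0.08 (SD over libraries, n = 3 each). Among all 13 antisense-only genes averaging 1 TPM or more with every exonic base shared, 10 were over 2-fold lower in the read-based tables, as were 2 of 50 with 50% to below 100% shared, 1 of 409 with less than 50% and none of 280 with none shared.

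In the other direction, Gm44649 had 7.15, 5.05 and 9.70 TPM in the gene tables and 72.2, 59.5 and 64.8 TPM in the read-based ones. Its partner Iqgap1 is a scaffold protein of the cytoskeleton. Gm20234 had 213, 101 and 108 read-based TPM and Gm28370 had 43.9, 34.0 and 37.2. Airn was also higher there, at 113, 96.6 and 89.4 TPM, whereas Kcnq1ot1 was close to its gene-table level at 14.3, 13.6 and 12.8 TPM. AC119228.1, with its shared coding bases, was close too, at 200, 133 and 99.7 TPM. Gm28913 lay above it there, at 432, 327 and 243 TPM.

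**Figure D5:**
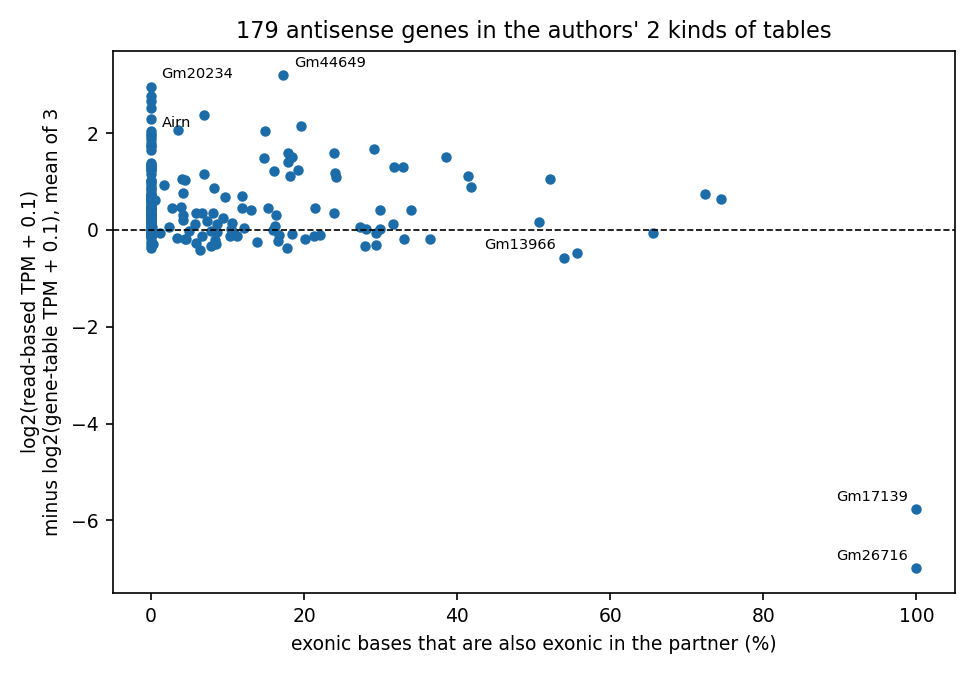
Difference between the read-based and the gene-table level (log2 of TPM + 0.1, mean of 3 libraries) of the 179 genes with a partner, against the percentage of their exonic bases that are also exonic in the partner. Gm17139 and Gm26716, at 100%, lie far below the dashed line of equal levels, and Gm44649 lies highest.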

How the data were processed

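The authors deposited, per library, a gene table with expected counts and TPM, derived from reads aligned to the mm10 transcriptome (M21 annotation), as the notes beside the files state. They also deposited a transcript table of that kind and one with estimated counts and TPM derived from the reads. The signal bounds of a TPM interval, as deposited by the authors, were not used for any result above. Some levels lay outside their own bounds, such as AC119228.1 in replicate 1, at 196 TPM against 174 to 188. No source used here names the tools, versions or strand setting. The genes and gene lists were chosen with earlier results of these data known.

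A partner was the coding gene on the other strand with the longest overlap, or else the one starting within 2000 bases. The genes named are the 12 highest and 5 lowest, those varying between libraries, the 3 highest and 3 lowest relative to the partner and between tables, those whose partner is in an immune list, and those in the list of described RNAs; others are said to have been chosen later. Read-based transcripts were summed per gene, and 86 identifiers absent from those tables were set to 0. Entries that are not genes held 0.283% to 1.39% of counts and were left out. Rounded expected counts entered edgeR 4.0.16 (R 4.3.3), with filterByExpr, TMM, a trended dispersion, the deviance against a chi-square distribution and Benjamini-Hochberg adjustment over all genes tested. This step was tested on simulated data. DESeq2 1.42.0 gave alternatives. Levels were not tested, since they chose the genes. Summaries were made in Python 3.11.15 (pandas 2.3.3, numpy 2.4.6).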

Additional observations from a re-analysis of the deposited data

How the results depend on the processing

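The number of genes rested on the threshold and the table: 646 antisense-only genes passed at 1 TPM, 76 at 10 TPM, 578 at 5 TPM in the read-based tables, and 204 to 210 when 1 replicate was left out. Requiring exons outside every opposite coding body, chosen after seeing the data, left 12. The 4 varying genes were also 4 with DESeq2 size factors and with no filter on low counts, were 2 as DESeq2 dispersion outliers (Gm16094 and Peak1os), and 0 to 2 of them were called without 1 replicate. The count over the whole set was then 1 to 2, since D730005E14Rik was called without replicate 1. Over all genes, 166 became 61 as DESeq2 outliers and 56 to 76 without 1 replicate. The 1 varying partner became 2 with no filter, 0 as DESeq2 outliers and 0 to 1 without 1 replicate. The median level of 3.34 on log2(TPM + 0.1) was 3.46 with a pseudocount of 1 and 3.98 in the read-based tables. The median difference to the partner, -1.88, was -1.79 with a pseudocount of 1, -1.80 in the read-based tables and -2.02 for partners averaging at least 1 TPM. The leading transcript's share of 71.9% was 65.1% in the read-based tables. The cause was not tested in any case. Of 35 named genes, 25 moved by more than their SD in the read-based tables, and 24 of the 35 were higher there. No paired analysis was possible because all libraries belong to 1 condition. Strand treatment and depth limit every level, the depth most for genes with few counts.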
